A study of Mus musculus with 17 samples.

Results

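Orthotopic tumours grown from the mouse ovarian cancer line ID8 were compared with the same line in culture, across all genes. The comparison used 3 tumour libraries and 1 library of the line, 4 of the 17 libraries of the series, chosen by their labels and not by any measured value. The orthotopic tumours came from ID8 cells injected inside the bursa of the right ovary and were sampled as primary tumour tissue on the ovary. The line, labelled as mouse ovarian surface epithelium, wild type and untreated, was grown in DMEM with 10% FBS at 37 °C and 5% CO2. The labels give no allele or drug for either group, and no host strain, age, harvest time or animal for the tumours. A library of healthy ovary, labelled C57BL6, is cited beside some genes. The study asks how far ID8 cells move between epithelial and mesenchymal states when they leave culture for the ovary.

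A solid tumour is a mixture. Cancer cells recruit blood vessels, fibroblasts and macrophages, which lay down matrix and present antigen, while cells in a dish have none of these neighbours and divide under serum. RNA from whole tumour therefore holds transcripts of host cells beside those of the injected cells. Fewer cells of a type and less RNA per cell cannot be told apart in such bulk samples.

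Gene levels are given as CPM, read counts divided by the TMM-scaled size of the library, and values for tumours 1, 2 and 3 are given in that order. Total counts were 27342134 to 38902048 in the tumours, against 38887321 in the line. Between 23430 and 25663 genes had a count in a tumour, against 21157 in the line, and mitochondrial genes held 6.37% to 6.99% of tumour counts, against 6.03% in the line. The line was checked against defining markers, and marker levels in the tumours are given below. The line had 577 CPM of Wt1 and 274 CPM of Gata6, transcription factors of the ovarian surface, and 262 CPM of the keratin Krt8, while the vessel gene Cdh5, the macrophage genes Adgre1 and Lyz2 and the 4 adult globin genes had no count in it. Of the 28 epithelial markers, 14 had under 1 CPM in the line, and Esrp1, Ovol2 and Ocln had no count there.

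Among tested genes, those higher in tumours mostly had under 1 CPM in the line. Those lower in tumours mostly still averaged at least 1 CPM there. Of 22671 genes tested, 537 rose in tumours (2.37% of those tested) and 189 fell (0.834%), 726 or 3.2% in either direction, at an adjusted p under 0.05 by edgeR's quasi-likelihood test with Benjamini-Hochberg adjustment. Of the 537, 446 had under 1 CPM in the line and 252 had no count there. Of the 189, 0 lacked counts in every tumour, 176 averaged at least 1 CPM in tumours and 133 at least 10 CPM, and their median tumour level was 24.2% of that in the line. Among tested genes, 489 had over 1 CPM in each tumour and no count in the line, against 1 gene, Sp8, with the reverse pattern. These numbers are not like for like. Genes over 0.5 CPM in fewer than 2 of the 17 libraries were not tested, which left out genes confined to the line's 1 library. The reverse pattern also needed no count in 3 libraries rather than 1. The median log2 fold change of all genes tested was 0.24. Scaling by library size alone put that median at 0.38 and gave 399 genes higher and 61 lower. Leaving out 1 tumour at a time gave 280, 277 and 341 genes higher and 45, 32 and 50 lower without tumours 1, 2 and 3. Of 93 genes named below that passed, 46 also passed whichever tumour was left out, and the others are pointed out. The line has no replicate, so its own spread enters the test only as the spread shared by the replicated groups.

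**Figure D1:**
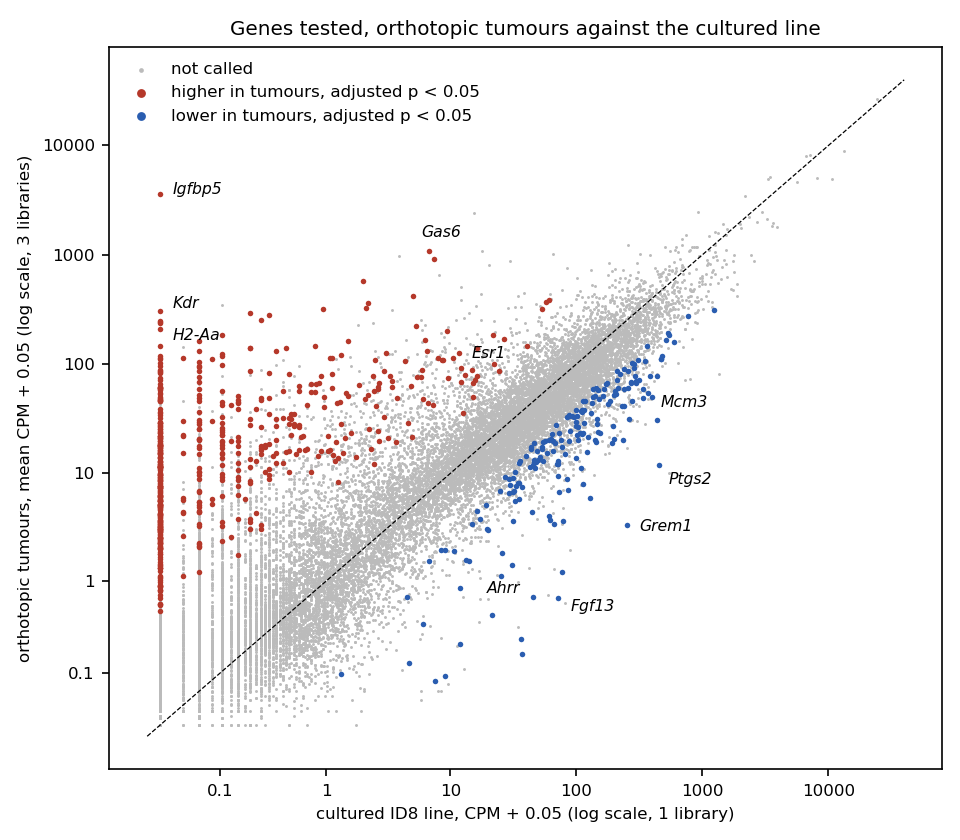
Each point is a gene tested, with its level in the line on the x axis and the mean of 3 orthotopic tumours on the y axis, in CPM plus 0.05 on log scales, and the dashed line marks equal levels. Red points, higher in tumours, gather at the left edge where the line had no count, and blue points, lower in tumours, run parallel to the diagonal over expressed genes.

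Blood vessel genes were the most often called of the cell type lists. Of 20 endothelial genes, 8 rose in tumours and none fell, against 2.37% of all genes tested that rose, and the list median was 6.73 (5.38 with genes absent from the line set at their lower bound), against 0.24 for all genes. Kdr, the main receptor for vascular endothelial growth factor, had 318, 254 and 175 CPM in tumours, against 0 counts in the line. Cdh5, the cadherin of endothelial junctions, had 45.9, 73.8 and 28.7 CPM in tumours and no count in the line, at least 623-fold higher (adjusted p = 0.0134). Vwf, the clotting factor stored in endothelium, had 63.2, 94.2 and 19.8 CPM in tumours, against 2 counts or 0.0530 CPM in the line, a ratio of 1115 with a counting interval of 309 to 9208 (adjusted p = 0.0198). Pecam1, an adhesion molecule of endothelium and platelets, had 51.8, 58.9 and 40.4 CPM in tumours, against 0.954 CPM in the line (log2 fold change 5.72 ± 0.92 SE, adjusted p = 0.0134). No tumour overlapped the line for any of these genes, and Cdh5 and Vwf were highest in tumour 2 and lowest in tumour 3. The angiopoietin receptor Tek, the vessel transcription factor Sox18 and the capillary proteins Plvap and Emcn also rose. In contrast, Ptprb, a vascular phosphatase, had 58.1, 67.0 and 35.8 CPM in tumours, against 115 CPM in the line, and Flt1 had 76.9, 38.0 and 78.4 CPM, against 16.8 CPM in the line, and neither passed the test. Leaving out 1 tumour at a time gave 6, 6 and 7 endothelial calls, and Tek and Emcn were the ones lost (adjusted p up to 0.0575 and 0.0813).

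Genes on the list of angiogenic ligands and receptors did not pass. None of 18 angiogenic ligand and receptor genes was called, with a list median of 1.23. Vegfa, the main ligand of Kdr, had 880, 213 and 1097 CPM in tumours, against 132 CPM in the line, a log2 fold change of 2.47 ± 1.86 (adjusted p = 0.489). Tumours 1 and 3 were far above the line and tumour 2 was close to it. Apln, a peptide of sprouting vessels, had 29.3, 41.1 and 15.1 CPM in tumours, against 0.053 CPM in the line (adjusted p = 0.0637).

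Red cell genes accompanied the vessel genes. Of 9 erythroid genes tested, 3 rose, against 2.37% of all genes tested that rose. The called genes were the globin genes Hbb-bs, Hba-a1 and Hba-a2. Hba-a1, an alpha globin of haemoglobin, had 166, 182 and 93.2 CPM in tumours and no count in the line, at least 1850-fold higher (adjusted p = 0.0334). Its near-identical copy Hba-a2 had 70.4, 78.0 and 31.7 CPM in tumours and no count in the line, and the split of reads between the copies is uncertain. Slc4a1, the red cell anion exchanger, had 19.1, 10.3 and 1.18 CPM in tumours, against no count in the line (adjusted p = 0.0818). Globin levels therefore marked tumour 3 as the lowest of the tumours, and the erythroid count was 1, 1 and 3 (Hba-a1 and Hba-a2, adjusted p up to 0.0628 and 0.0614) without tumours 1, 2 and 3 and 0 without the filter on low counts.

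Macrophage genes also stood above the line. Of 15 macrophage genes, 5 rose and none fell, against 2.37% of all genes tested that rose, with a list median of 6.48 (5.08 at the bounds). Csf1r, the receptor for macrophage colony-stimulating factor, had 69.0, 52.9 and 77.5 CPM in tumours, against 0.742 CPM in the line (log2 fold change 6.48 ± 1.39, adjusted p = 0.0314). Adgre1, which encodes the F4/80 antigen of mouse macrophages, had 26.2, 20.04 and 19.9 CPM in tumours and no count in the line, at least 277-fold higher (adjusted p = 0.0192). Itgam, an integrin of myeloid cells, had 30.4, 14.6 and 62.7 CPM in tumours and no count in the line (adjusted p = 0.0252). The 3 tumours were close for Csf1r and Adgre1, while Itgam and the lysozyme gene Lyz2 were highest in tumour 3. Spi1, the transcription factor PU.1 of myeloid cells, rose as well. The scavenger receptors were split, as Mrc1 had 25.2, 29.6 and 45.4 CPM in tumours and no count in the line (adjusted p = 0.0514), while Marco had 0.156, 0.0665 and 3.13 CPM in tumours. Csf1r was lost whichever tumour was left out (adjusted p 0.0543 to 0.0614), and the other 4 calls were kept.

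Some complement genes and most MHC class II genes rose, and no MHC class I gene was called. The complement list held 22 genes, of which 6 rose and none fell, against 2.37% of all genes tested that rose. The called genes were the chains C1qa, C1qb and C1qc that start the classical pathway, the receptors C5ar1 and C3ar1, and the inhibitor Serping1. C1qb had 109, 59.8 and 92.7 CPM in tumours and no count in the line, at least 1098-fold higher (adjusted p = 0.0104). Serping1, which blocks the C1 proteases, had 191, 127 and 101 CPM in tumours, against 0.450 CPM in the line (log2 fold change 8.27 ± 1.61, adjusted p = 0.0220). Components made by the line itself did not pass, as C3 had 1751, 421 and 2332 CPM in tumours, against 1134 CPM in the line (adjusted p = 0.883). Of 8 MHC class II genes, 5 rose, against the same 2.37% of all genes. Cd74, the invariant chain that loads class II molecules, had 506, 223 and 232 CPM in tumours, against 0.927 CPM in the line (log2 fold change 8.43 ± 1.49, adjusted p = 0.0175). H2-Eb1, a class II beta chain, had 188, 106 and 78.7 CPM in tumours, against 0.106 CPM in the line (adjusted p = 0.0125). Tumour 1 was the highest of the tumours for H2-Aa, H2-Ab1, H2-Eb1 and Cd74, and no tumour overlapped the line. Leaving out any 1 tumour also gave 5 class II calls, and 5 complement calls, with C3ar1 lost (adjusted p up to 0.0638). Reads of the related H2 genes may be split among them. By contrast none of 13 MHC class I genes and none of 23 interferon response genes was called, with list medians of 1.46 and 1.69. B2m, the light chain of class I, had 888, 388 and 710 CPM in tumours, against 461 CPM in the line (adjusted p = 0.730).

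T and NK cell genes were low in the tumours. None of 18 T and NK cell genes was called, and their summed level was 17.7, 8.14 and 6.74 CPM in tumours, against 3.07 CPM in the line. Cd3e, a chain of the T cell receptor complex, had 1.27, 0.665 and 0.316 CPM in tumours and no count in the line (adjusted p = 0.128). Of 11 B and plasma cell genes 1 was called, and that one fell, against 0.834% of all genes tested that fell. Sdc1, a syndecan that marks plasma cells and is also made by epithelium, had 37.6, 26.5 and 17.7 CPM in tumours, against 194 CPM in the line (log2 fold change -2.83 ± 0.68, adjusted p = 0.0443, up to 0.121 with a tumour left out). The rest of that list leaned the other way without a call. Of its log2 fold changes 10 were above 0 and 1 below, with a median of 4.71, though 7 members had no count in the line. Jchain, also on the list, had 42.9, 9.91 and 7.76 CPM in tumours and no count in the line (adjusted p = 0.0554). The B cell factor Pax5 had at most 0.156 CPM in a tumour. None of 13 neutrophil genes passed, with a summed level of 47.6, 11.6 and 37.6 CPM in tumours, against 1.298 CPM in the line. The dendritic cell list had 1 gene of 10 higher, against 2.37% of all genes tested that rose. That gene was the integrin Itgax, at 19.4, 8.24 and 11.5 CPM in tumours and no count in the line. The sum of the list was 92.3, 84.8 and 104 CPM in tumours, against 35.9 CPM in the line. Mast cell proteases were present in each tumour without passing the test. Cpa3, a carboxypeptidase of mast cell granules, had 27.2, 22.4 and 6.45 CPM in tumours and no count in the line, at least 235-fold higher (adjusted p = 0.0857). Of 16 checkpoint genes 3 rose, against the same 2.37% of all genes. Pdcd1, which encodes the receptor PD-1, had 10.3, 46.7 and 7.34 CPM in tumours and no count in the line (adjusted p = 0.0417). The checkpoint count was 0, 1 and 1 without tumours 1, 2 and 3, and Pdcd1 was lost each time (adjusted p up to 0.0651). Cd274, which encodes its ligand PD-L1, had 11.4, 4.45 and 9.89 CPM in tumours, against 4.61 CPM in the line (adjusted p = 0.682).

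**Figure D2:**
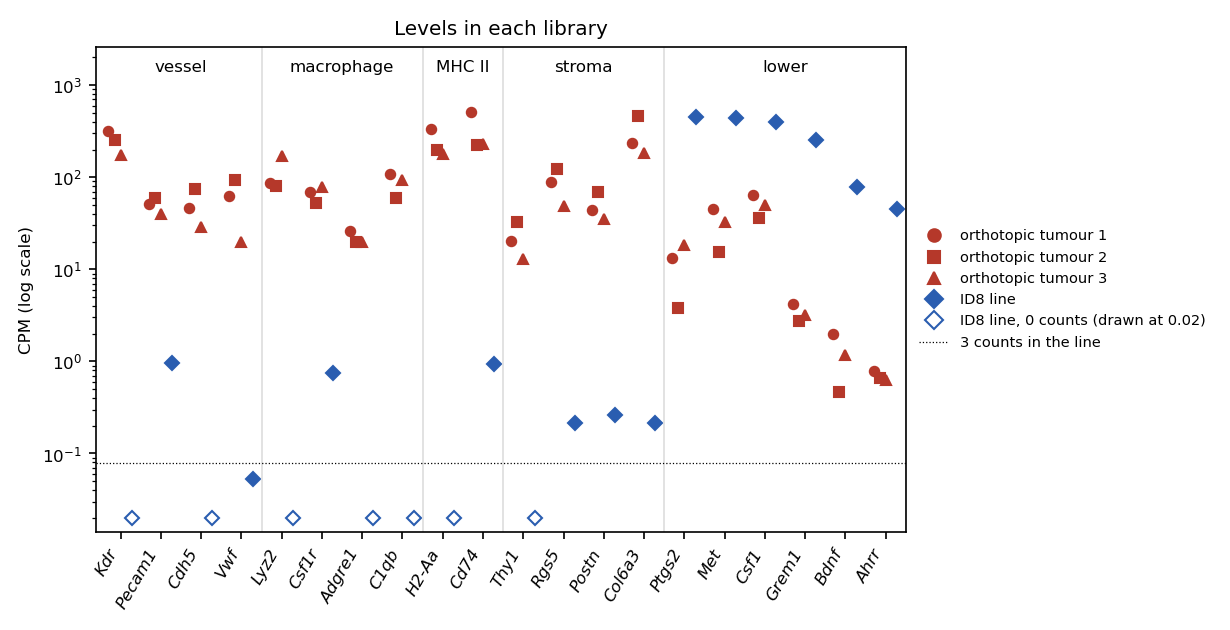
Level of 20 genes in each library, in CPM on a log scale, with red symbols for orthotopic tumours 1 to 3 and blue diamonds for the ID8 line, open diamonds near the lower edge where the line had 0 counts, and a dotted line at 3 counts in the line. Vessel, macrophage, class II and stromal genes lie above the line in each tumour, and the 6 genes on the right, such as Ptgs2 and Met, lie below it in each tumour.

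Stromal cell and matrix genes rose in part. Of 12 fibroblast genes 3 rose, and of 14 mural and smooth muscle genes tested 3 rose, against 2.37% of all genes tested. Thy1, a surface glycoprotein of fibroblasts, had 20.5, 32.5 and 13.1 CPM in tumours and no count in the line, at least 277-fold higher (adjusted p = 0.0104). Cspg4, the NG2 proteoglycan of pericytes, had 37.2, 36.4 and 30.7 CPM in tumours, against 0.318 CPM in the line (log2 fold change 6.75 ± 0.88, adjusted p = 0.00979). Rgs5, a signalling regulator of pericytes, had 89.8, 123 and 49.1 CPM in tumours, against 0.212 CPM in the line (adjusted p = 0.0244). Cspg4 was nearly equal among the tumours, while Thy1 and Rgs5 were highest in tumour 2 and lowest in tumour 3. Acta2, the smooth muscle actin, had 74.5, 23.9 and 43.4 CPM in tumours, against 23.6 CPM in the line and did not pass (adjusted p = 0.484). Leaving out tumours 1, 2 and 3 gave 2, 1 and 2 fibroblast calls and 2 mural calls each time.

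The matrix lists differed in how many members passed. Of 23 matricellular and microfibril genes 6 rose, and of 22 basement membrane genes 4. Of 23 fibrillar collagen and crosslinking genes 2 rose, of 28 protease and inhibitor genes 2 and of 19 integrins 3. None of these genes fell, and 2.37% of all genes tested rose. Postn, a matrix protein of wound and tumour stroma, had 43.9, 69.6 and 35.1 CPM in tumours, against 0.265 CPM in the line (log2 fold change 7.52 ± 1.63, adjusted p = 0.0321). Tnc, an adhesion-modulating glycoprotein, had 149, 108 and 73.1 CPM in tumours, against 2.52 CPM in the line (log2 fold change 5.45 ± 1.2, adjusted p = 0.0341). Col6a3, a chain of the beaded collagen VI, had 238, 466 and 181 CPM in tumours, against 0.212 CPM in the line (log2 fold change 10.41 ± 1.99, adjusted p = 0.0211). Its partner chain Col6a1 was already present in culture, at 639, 658 and 232 CPM in tumours, against 203 CPM in the line (adjusted p = 0.459). A similar split ran through the basement membrane list. Lama4, the laminin alpha chain of vessel walls, had 68.5, 69.8 and 59.6 CPM in tumours, against 0.821 CPM in the line (log2 fold change 6.32 ± 1.40, adjusted p = 0.0342). Col18a1, the collagen that yields endostatin, had 360, 473 and 138 CPM in tumours, against 2.12 CPM in the line (log2 fold change 7.25 ± 1.67, adjusted p = 0.0391). The widely used chains Lamc1 and Col4a1 did not pass, with 455, 411 and 338 CPM of Lamc1 in tumours, against 515 CPM in the line. Leaving out any 1 tumour gave 3 matricellular calls, and 1, 1 and 2 basement membrane calls without tumours 1, 2 and 3. Postn, Tnc and Lama4 were lost each time (adjusted p up to 0.0683, 0.0703 and 0.0658), and Col18a1 without tumours 1 or 2 (0.0763).

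Tgfbi, an adhesion protein induced by transforming growth factor beta, had 329, 468 and 126 CPM in tumours, against no count in the line. Itga9, the alpha chain of a tenascin-binding integrin, had 76.4, 242 and 104 CPM in tumours, against 0.212 CPM in the line (log2 fold change 9.35 ± 1.54, adjusted p = 0.0137). Adamts12, a secreted metalloprotease, had 122, 110 and 56.1 CPM in tumours and no count in the line, at least 1208-fold higher (adjusted p = 0.0211). Tumour 2 was the highest for Tgfbi and Itga9, and tumour 3 the lowest for Tgfbi and Adamts12.

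Fibronectin and other mesenchymal products that the line already made were not called. Fn1 had 2280, 759 and 2215 CPM in tumours, against 2022 CPM in the line (adjusted p = 0.959), and Sparc, a collagen-binding glycoprotein, had 4472, 2962 and 2854 CPM in tumours, against 2182 CPM in the line (adjusted p = 0.798). Col1a1, the main fibrillar collagen chain, had 1300, 1562 and 712 CPM in tumours, against 885 CPM in the line (adjusted p = 0.901). The line lay within the range of the tumours for Fn1 and Col1a1, and below it for Sparc. Lox, the enzyme that crosslinks collagen, had 35.1, 41.6 and 48.7 CPM in tumours, against 283 CPM in the line (adjusted p = 0.157).

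Neither the epithelial markers nor the transcription factors that drive epithelial-mesenchymal transition had more than 1 call. Of 28 epithelial genes 20 had a log2 fold change above 0 and 8 below, with a list median of 0.86 (0.45 at the bounds). Of these genes 1 rose, against 2.37% of all genes tested, the tight junction gene Ocln, with 8.49, 9.54 and 4.58 CPM in tumours and no count in the line (adjusted p = 0.0215), and none fell. Cdh1, the cadherin of epithelial junctions, had 9.29, 5.52 and 14.4 CPM in tumours, against 94.0 CPM in the line (log2 fold change -3.27 ± 0.83, adjusted p = 0.0538). Epcam, an epithelial adhesion molecule, had 3.84, 3.52 and 23.8 CPM in tumours, against 0.583 CPM in the line (adjusted p = 0.193). These junction genes thus stood on opposite sides of the line, each outside its value in all 3 tumours. Krt8 and Krt18 had 79.4 to 148 and 46.0 to 106 CPM in tumours, against 262 and 247 CPM in the line. None of 9 transition factors passed, with a list median of -0.06. Zeb1, a repressor of epithelial genes, had 128, 152 and 107 CPM in tumours, against 67.5 CPM in the line (adjusted p = 0.320), and Twist2, a mesenchymal factor, had 0.337, 0.399 and 0.0526 CPM in tumours, against 8.48 CPM in the line (adjusted p = 0.0753).

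The ovarian surface factors Wt1 and Gata6 were not called, and the line lay within the range of the tumours for both. Wt1 had 625, 345 and 561 CPM in tumours, against 577 CPM in the line, with a 95% interval of the log2 fold change of -2.93 to 2.58, and Gata6 had 333, 278 and 240 CPM in tumours, against 274 CPM in the line, with an interval of -1.83 to 1.93. The library of healthy ovary, which carries host tissue alone, had 78.4 CPM of Wt1 and 74.5 CPM of Gata6. Upk3b, a uroplakin of mesothelium, had 717, 109 and 276 CPM in tumours, against 513 CPM in the line. None of the 12 mesothelial and ovarian surface genes was called, and Upk1b, Gpm6a and Msln stood lower than the line in each tumour without passing.

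Ptgs2, Met and Csf1 fell in the tumours. Ptgs2, the inducible cyclooxygenase that makes prostaglandins, had 13.4, 3.82 and 18.5 CPM in tumours, against 450 CPM in the line (log2 fold change -5.24 ± 1.12, adjusted p = 0.0312). Met, the receptor for hepatocyte growth factor, had 45.7, 15.5 and 32.3 CPM in tumours, against 438 CPM in the line (-3.81 ± 0.77, adjusted p = 0.0254). Its ligand Hgf moved the other way, with 3.43, 3.29 and 2.13 CPM in tumours and no count in the line, at least 37.1-fold higher (adjusted p = 0.0254). Csf1, the ligand of the macrophage receptor Csf1r, had 63.5, 36.4 and 49.6 CPM in tumours, against 400 CPM in the line (-3.005 ± 0.60, adjusted p = 0.0244). In both pairs the receptor and the ligand therefore stood on opposite sides of the line. Tumour 2 was the lowest of the tumours for Ptgs2, Met and Csf1, and no tumour reached the level of the line. Ptgs2 and Csf1 were lost whichever tumour was left out (adjusted p up to 0.0891 and 0.0752), Met without tumours 2 or 3 (0.0698) and Hgf without tumour 2 (0.0502).

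Grem1, Bdnf and Fgf13 fell to a few CPM or less. Grem1, a secreted antagonist of bone morphogenetic proteins, had 4.15, 2.73 and 3.21 CPM in tumours, against 252 CPM in the line (log2 fold change -6.22 ± 1.22, adjusted p = 0.0231). Bmp7, a ligand of that family, had 169, 89.1 and 46.3 CPM in tumours and no count in the line, at least 1279-fold higher (adjusted p = 0.0176), and 7.004 CPM in healthy ovary. Bdnf, a neurotrophin, had 1.97, 0.465 and 1.18 CPM in tumours, against 77.8 CPM in the line (-6.001 ± 0.98, adjusted p = 0.0134). Fgf13, an intracellular member of the fibroblast growth factor family, had 0.623, 0.731 and 0.684 CPM in tumours, against 72.0 CPM in the line (-6.72 ± 1.02, adjusted p = 0.0117). The tumours agreed closely for Grem1 and Fgf13. Of 23 genes on the growth factor list 1 rose and 3 fell, against 2.37% and 0.834% of all genes tested. Hgf was the gene that rose, and the receptor gene Met, Bdnf and Fgf13 were those that fell. The epidermal growth factor receptor ligands Ereg and Btc stood lower without passing. Btc had 18.2, 3.86 and 24.4 CPM in tumours, against 181 CPM in the line (adjusted p = 0.0814). Other genes of large fold included Ripply1, a transcriptional repressor of somite development, with 0.311, 0.133 and 0.0789 CPM in tumours, against 37.1 CPM in the line (-7.69, adjusted p = 0.0302), Arhgap40, a GTPase-activating protein gene, and Dlk2, a Notch ligand-like gene. Grem1, Ripply1 and Arhgap40 did not pass with a tumour left out (adjusted p up to 0.0782, 0.0945 and 0.0966), nor did Dlk2 without tumour 1 (0.0522), while Bdnf and Fgf13 did in each case.

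Other signalling lists held few calls. Of 31 Wnt genes 1 rose, close to the 2.37% of all genes tested that rose, with 23 log2 fold changes above 0, 8 below and a list median of 1.84. The called gene was the secreted antagonist Sfrp1, with 53.5, 19.05 and 17.7 CPM in tumours, against 1 count in the line, a ratio of 1136 with a counting interval of 204 to 44885 (adjusted p = 0.0407), and it did not pass without any 1 tumour (adjusted p up to 0.0703). Wnt10a, a ligand, had 7.58, 3.16 and 19.8 CPM in tumours, against 545 CPM in the line (log2 fold change -5.74 ± 1.61, adjusted p = 0.0737). The chemokine list had 17 log2 fold changes above 0 and 6 below, with a median of 4.53. Of its 23 genes 1 rose, against 2.37% of all genes tested that rose. That gene, Cxcl14, had 21.2, 26.3 and 11.5 CPM in tumours, against 0.106 CPM in the line (7.48 ± 1.17, adjusted p = 0.0125). Cxcl12, a stromal chemokine, had 79.6, 42.0 and 26.1 CPM in tumours, against 311 CPM in the line (adjusted p = 0.177). Sfrp1 and Cxcl14 were above the line in each tumour, and Wnt10a and Cxcl12 below it. Of 21 inflammatory mediators 1 rose, Tnf, and 2 fell, Ptgs2 and Csf1, against 2.37% and 0.834% of all genes tested. The count was 0 in both directions whichever tumour was left out. Of 14 imprinted genes 2 rose, against 2.37% of all genes tested. Grb10, an adaptor that restrains insulin signalling, had 16.01, 14.4 and 14.7 CPM in tumours, against 2 counts in the line. Its ratio was 284, with a counting interval of 78.6 to 2344 (adjusted p = 0.0133).

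The aryl hydrocarbon receptor is a ligand-activated transcription factor that induces xenobiotic-metabolising enzymes and its own repressor. That repressor, Ahrr, had 0.779, 0.665 and 0.632 CPM in tumours, against 45.3 CPM in the line (log2 fold change -6.03 ± 0.84, adjusted p = 0.0102), the one call of 10 genes on the list, against 0.834% of all genes tested that fell. The call was kept without any 1 tumour. Cyp1a1, the classic induced enzyme, had 0.363, 0.465 and 0.211 CPM in tumours, against 34.6 CPM in the line (-6.63 ± 1.65, adjusted p = 0.0512). All 3 tumours lay within a narrow band far below the line for both genes. The receptor gene Ahr had 84.5, 29.5 and 80.2 CPM in tumours, against 148 CPM in the line (adjusted p = 0.265), and Tiparp, another induced gene, had 98.4, 109 and 85.2 CPM in tumours, against 62.3 CPM in the line. The core of the receptor's response element, GCGTG on either strand, was searched in RefSeq promoters of mouse build GRCm38.p6, from 250 bases before to 50 bases after each gene's start. It was found in 5 of the 7 list genes that had a promoter, and in 35.2% of 27025 genes. The promoter of Ahrr is shown because that gene had the one call, with 3 matches in capitals (chr13:74292282-74292581, minus strand). None of them overlapped another motif searched.
Ahrr: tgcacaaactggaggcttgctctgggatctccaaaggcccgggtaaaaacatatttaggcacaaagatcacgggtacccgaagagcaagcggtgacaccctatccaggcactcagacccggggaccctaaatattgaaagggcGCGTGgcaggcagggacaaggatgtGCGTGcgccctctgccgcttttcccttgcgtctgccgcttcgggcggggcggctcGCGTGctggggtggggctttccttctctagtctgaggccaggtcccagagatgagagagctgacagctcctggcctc

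DNA replication genes had the most calls of any list among the genes that fell. Of 24 genes 8 fell and none rose, against 0.834% of all genes tested that fell, and the list median was -2.11, against 0.24 for all genes. The called genes were 5 subunits of the MCM helicase that unwinds DNA (Mcm2, Mcm3, Mcm4, Mcm5 and Mcm7), the loading factor Cdt1, the helicase cofactor Gins1 and the ribonucleotide reductase subunit Rrm2. Rrm2 had 30.4, 16.9 and 13.9 CPM in tumours, against 236 CPM in the line (log2 fold change -3.53 ± 0.70, adjusted p = 0.0244). Cdt1 had 25.05, 18.1 and 14.8 CPM in tumours, against 144 CPM in the line (-2.90 ± 0.53, adjusted p = 0.0182). Mcm5 had 51.7, 52.2 and 33.2 CPM in tumours, against 276 CPM in the line (-2.60 ± 0.61, adjusted p = 0.0420). Every tumour lay below the line for all 24 genes of the list. The sixth helicase subunit, Mcm6, had 107, 102 and 80.6 CPM in tumours, against 303 CPM in the line and did not pass (adjusted p = 0.111). Of the 8, fewer passed with a tumour left out, at 2, 1 and 1 genes without tumours 1, 2 and 3. Over all genes tested, those lower went from 189 to 45, 32 and 50 in the same fits. With library size alone 2 replication genes passed, and 61 of all genes were lower. Cdt1 passed in each case and Rrm2 without tumour 1, while Gins1 and the 5 MCM genes reached an adjusted p of 0.0844 to 0.120 with a tumour left out.

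E2F factors bind a short site before many replication genes. The letters TTTCCCGC, TTTGGCGC, TTTCGCGC and TTTGCCGC, on either strand, were found in the promoters of 8 of the 19 replication genes that had one, and in 2.6% of 27025 genes. The promoters of Mcm3 (chr1:20820263-20820562, minus strand) and Mcm5 (chr8:75109259-75109558, plus strand) are shown as examples from the genes that fell, with 2 matches each in capitals. The matches lie past the start site in Mcm3, and before it in Mcm5, where they overlap each other. Among the other replication genes that fell, Cdt1 and Mcm7 also held a match and Mcm2 and Rrm2 held none. Mcm4 and Gins1 had no promoter to search. The promoter of Plk1 (chr7:122159185-122159484, plus strand) is shown for the mitosis list below, with its 1 match to TTTGAA, the cell cycle homology region, in capitals. That motif was in 13 of 19 mitosis genes with a promoter and in 20.2% of 27025 genes.
Mcm3: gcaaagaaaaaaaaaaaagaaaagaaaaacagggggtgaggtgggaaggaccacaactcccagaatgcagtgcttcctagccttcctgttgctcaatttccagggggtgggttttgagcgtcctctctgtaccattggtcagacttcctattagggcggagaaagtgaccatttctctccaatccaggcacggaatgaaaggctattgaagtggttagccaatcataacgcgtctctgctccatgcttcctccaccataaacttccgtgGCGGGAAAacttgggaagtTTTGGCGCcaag
Mcm5: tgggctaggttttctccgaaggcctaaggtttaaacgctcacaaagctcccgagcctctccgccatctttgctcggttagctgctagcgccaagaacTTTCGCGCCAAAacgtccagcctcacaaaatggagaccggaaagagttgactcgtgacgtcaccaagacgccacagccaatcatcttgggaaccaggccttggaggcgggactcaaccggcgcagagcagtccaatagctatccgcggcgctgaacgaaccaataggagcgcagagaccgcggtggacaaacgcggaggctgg
Plk1: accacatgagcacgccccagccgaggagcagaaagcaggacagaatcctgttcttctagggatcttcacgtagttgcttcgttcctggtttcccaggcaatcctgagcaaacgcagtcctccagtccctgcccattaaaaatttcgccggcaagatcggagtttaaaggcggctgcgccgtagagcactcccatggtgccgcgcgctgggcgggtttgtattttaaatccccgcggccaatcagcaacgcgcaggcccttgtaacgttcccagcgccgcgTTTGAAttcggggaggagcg

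Mitosis genes also stood below the line, with 1 call. Of 25 genes 1 fell, Plk1, against 0.834% of all genes tested that fell, and the list median was -2.42. DESeq2 called 8 of the 25 lower, beside 1077 of all 22671 genes tested, so the count depended on the fit. The kinase Plk1, whose promoter is printed above, had 32.2, 19.1 and 19.97 CPM in tumours, against 149 CPM in the line. Aurka, a spindle kinase, had 22.8, 11.7 and 14.5 CPM in tumours, against 107 CPM in the line (log2 fold change -2.71 ± 0.69, adjusted p = 0.0557). Mki67, the proliferation antigen, had 397, 278 and 323 CPM in tumours, against 1194 CPM in the line (-1.84 ± 0.87, adjusted p = 0.251). Each of the 25 genes was lower in all 3 tumours than in the line, and the summed level was 1518, 967 and 1156 CPM in tumours, against 5431 CPM in the line. The mitosis count was 1 without tumour 1 and 0 without tumours 2 or 3 (Plk1, adjusted p up to 0.0856). On the list of p53 targets and cycle inhibitors 9 of 23 log2 fold changes were above 0 and 14 below, with a median of -0.79. Of these genes 2 rose, Cdkn1c and Sesn1, against 2.37% of all genes tested that rose. Cdkn1c, the inhibitor p57, had 3.71, 4.52 and 4.82 CPM in tumours, against 1 count in the line, a ratio of 164 with a counting interval of 29.5 to 6486 (adjusted p = 0.0213), while Cdkn1a, the inhibitor p21, had 57.9, 24.7 and 62.4 CPM, against 46.6 CPM in the line, and Cdkn1b, the inhibitor p27, had 133, 122 and 117 CPM, against 118 CPM in the line. Mdm2 and Ccng1, targets of p53, stood at 61.8 to 99.8 and 90.5 to 182 CPM in tumours, against 171 and 365 CPM in the line, and did not pass.

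Genes for sterol synthesis and ribosome assembly also fell in part. Of 24 cholesterol genes 4 fell and none rose, against 0.834% of all genes tested that fell. The list median was -1.54, and each of the 24 had a negative log2 fold change. Fdps, which makes farnesyl diphosphate, had 16.3, 11.5 and 24.8 CPM in tumours, against 77.6 CPM in the line (log2 fold change -2.15 ± 0.38, adjusted p = 0.0177). Ebp and Idi1, an isomerase each of the sterol and isoprenoid steps, also fell. Without tumours 1, 2 and 3 the cholesterol count was 1, 1 and 2, with Fdps passing in each case and Ebp and Idi1 reaching an adjusted p of 0.0849 and 0.115. Abca1, a pump that exports cholesterol, stood on the other side, with 387, 532 and 353 CPM in tumours, against 5.09 CPM in the line (6.38 ± 1.26, adjusted p = 0.0235), as did Apoe, a carrier of exported lipid, with 348, 372 and 374 CPM in tumours, against 2.199 CPM in the line (7.37 ± 1.28, adjusted p = 0.0167). None of 11 fatty acid synthesis genes passed, and Fasn had 995, 2133 and 594 CPM in tumours, against 690 CPM in the line.

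**Figure D3:**
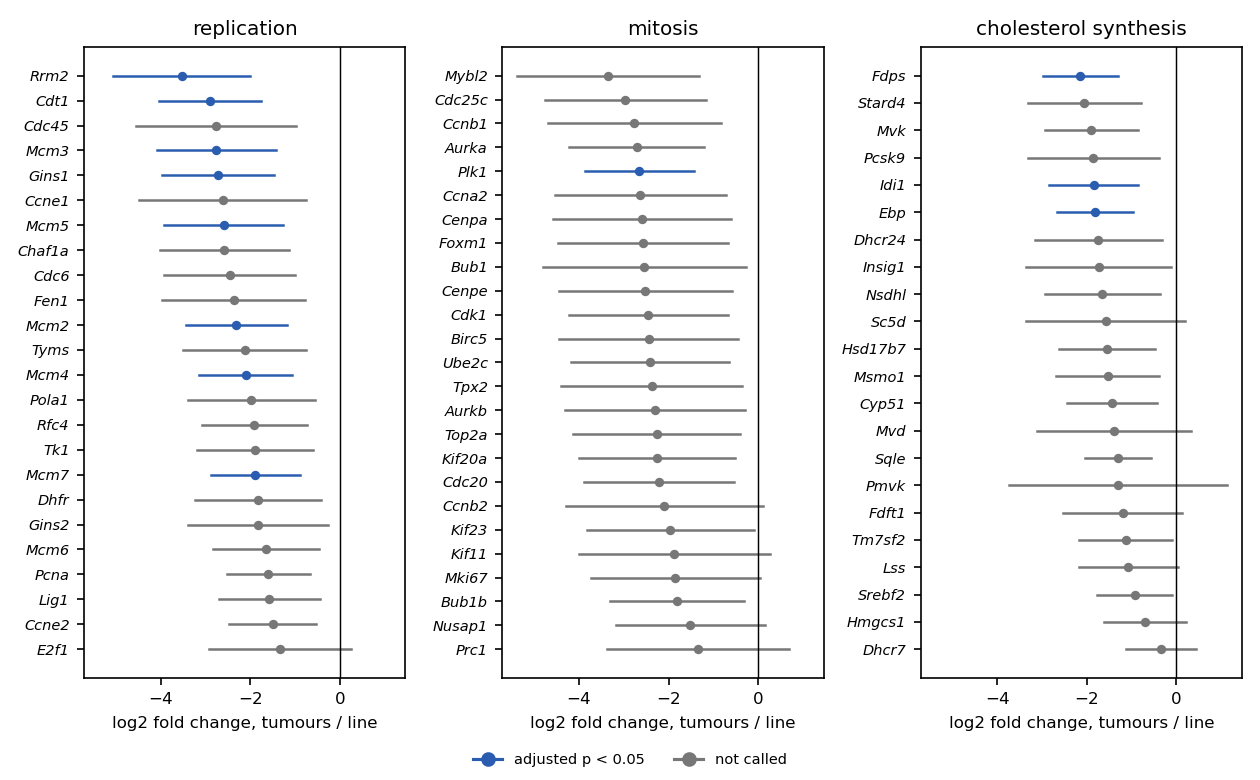
Log2 fold change of genes of the replication, mitosis and cholesterol synthesis lists, orthotopic tumours over the line, with 95% intervals from the edgeR fit. Genes with an adjusted p under 0.05 are blue and the others grey, and each point lies below 0.

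Of 15 ribosome biogenesis genes 3 fell, against 0.834% of all genes tested that fell, with a list median of -1.50. Dkc1, the pseudouridine synthase of ribosomal RNA, had 18.9, 21.4 and 19.1 CPM in tumours, against 87.4 CPM in the line (log2 fold change -2.14 ± 0.40, adjusted p = 0.0198). The nucleolar proteins Nop2 and Nop56 were the other 2, and the count was 0, 1 and 1 without tumours 1, 2 and 3 (Dkc1, Nop2 and Nop56, adjusted p up to 0.0552, 0.0916 and 0.110). Among the 6 genes named for the largest drop in mean CPM were the following 4. Eif5a, an elongation factor, had 314, 236 and 397 CPM in tumours, against 1229 CPM in the line (-1.96 ± 0.42, adjusted p = 0.0314). Gars, the glycyl-tRNA synthetase, had 130, 108 and 120 CPM in tumours, against 483 CPM in the line (-2.01 ± 0.47, adjusted p = 0.0413). Ybx1, an RNA-binding protein, and Septin11, a cytoskeletal GTPase, fell by 1.48 and 1.88 on the log2 scale. The tumours were close to each other for Gars and Septin11, and none overlapped the line. Eif5a, Gars and Ybx1 reached an adjusted p of 0.0909, 0.110 and 0.0983 with a tumour left out. The amino acid stress genes had the same direction in 16 of 18 without a call, as with Asns, the asparagine synthetase, at 27.0, 24.8 and 39.7 CPM in tumours, against 208 CPM in the line (adjusted p = 0.177). Energy genes did not pass, with 0 of 16 glycolysis genes, 0 of 15 nuclear and 0 of 13 mitochondrial respiratory chain genes called and list medians of -0.03, -0.41 and 0.26.

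Among the genes with the largest rise in level, Igfbp5, Gas6, Gas7 and Atp1b2 stood out. Igfbp5 encodes an extracellular protein that binds IGF1 and IGF2, and it had 6853, 1828 and 2067 CPM in tumours, against 0 counts in the line and 1678 CPM in healthy ovary. Tumour 1 was thus the highest of the tumours, and the other 2 were near the healthy ovary. Gas6, the ligand of the TAM receptor kinases, had 826, 1786 and 629 CPM in tumours, against 6.81 CPM in the line (log2 fold change 7.31 ± 1.31, adjusted p = 0.0178). Axl, one of its receptors, had 801, 789 and 583 CPM in tumours, against 570 CPM in the line (adjusted p = 0.828), and Mertk, another, had 41.1, 71.6 and 45.9 CPM, against 1.64 CPM in the line (adjusted p = 0.0773). Gas7, whose protein acts on the actin cytoskeleton, had 946, 1052 and 734 CPM in tumours, against 7.36 CPM in the line (adjusted p = 0.0321). Atp1b2, a beta subunit of the sodium pump, had 547, 689 and 504 CPM in tumours, against 1.99 CPM in the line (adjusted p = 0.0342). Kcnma1, a calcium-activated potassium channel, had 200, 287 and 138 CPM in tumours and no count in the line, at least 2619-fold higher (adjusted p = 0.0131). No tumour overlapped the line for any gene in this group that passed. Gas7 and Atp1b2 were lost whichever tumour was left out (adjusted p up to 0.0692 and 0.0709).

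Genes of hormone response and of the ovary stood above the line, with few calls. Esr1, the oestrogen receptor, had 107, 117 and 51.8 CPM in tumours, against 12.3 CPM in the line (log2 fold change 2.90 ± 0.63, adjusted p = 0.0321). Each tumour lay above the line, and tumour 3 was the lowest of the tumours. The list of Müllerian lineage and hormone receptor genes had 2 calls of 12, both higher, against 2.37% of all genes tested that rose. The count was 0, 0 and 1 without tumours 1, 2 and 3 (adjusted p up to 0.0676 for Esr1). None of 19 granulosa, theca and luteal genes passed. Amhr2, the receptor for anti-Müllerian hormone, had 1024, 853 and 555 CPM in tumours, against 20.4 CPM in the line (5.31 ± 2.04, adjusted p = 0.163), and 61.6 CPM in healthy ovary. Star, which moves cholesterol into mitochondria for steroid synthesis, had 213, 187 and 388 CPM in tumours, against 12.9 CPM in the line (adjusted p = 0.194) and 79.7 CPM in healthy ovary. Both genes were higher in every tumour than in healthy ovary, while the steroid enzymes Cyp11a1 and Hsd3b1 had at most 11.3 and 11.6 CPM in a tumour and 1443 and 1863 CPM in healthy ovary. The oocyte genes Zp2 and Zp3 had at most 0.104 CPM in a tumour, and 28.6 and 18.4 CPM in healthy ovary.

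A group of genes rose although the line already expressed them. Of the 537 genes higher in tumours, 20 had at least 10 CPM in the line, and those named here were picked out after their values were seen. Gab2, a docking protein of receptor kinases, had 128, 124 and 127 CPM in tumours, against 11.8 CPM in the line (log2 fold change 3.42, adjusted p = 0.0177). Mxd4, a partner of Max that opposes Myc, had 174, 279 and 103 CPM in tumours, against 21.9 CPM in the line (3.08, adjusted p = 0.0208). Per3, a circadian clock gene, had 71.4, 108 and 60.9 CPM in tumours, against 13.0 CPM in the line (2.62, adjusted p = 0.0342). Sesn1, a stress-induced inhibitor of growth signalling, had 68.8, 90.3 and 56.8 CPM in tumours, against 15.6 CPM in the line (2.2035, adjusted p = 0.0302). Gab2 was nearly equal among the tumours, and Mxd4, Per3 and Sesn1 shared the order of tumour 2, then tumour 1, then tumour 3. The 20 also included Pink1, a kinase of mitochondrial quality control, Fyn, a Src family kinase, Kdm7a, a histone demethylase, and the scaffold gene Dab2ip. With a tumour left out, Gab2 and Mxd4 passed in each case, while Per3, Sesn1, Pink1, Fyn, Kdm7a and Dab2ip reached an adjusted p of 0.0564 to 0.0794.

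Some abundant genes had narrow intervals around no difference. For 662 genes the 95% interval of the log2 fold change lay between -1 and 1. Srrm2, a splicing cofactor, had 1532, 1560 and 1422 CPM in tumours, against 1545 CPM in the line, with an interval of -0.85 to 0.77. The splicing gene Son, the chromatin remodeller Chd4, the ubiquitin ligase Trip12, and Prrc2a and Ankrd17 were the other 5 with the highest level in the line among these. Trip12 was lower in each tumour, at 424, 474 and 426 CPM, against 532 CPM in the line, with an interval of -0.94 to 0.40. For the other named genes the line lay within the range of the tumours, though the interval of Chd4 reached -0.98.

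**Figure D4:**
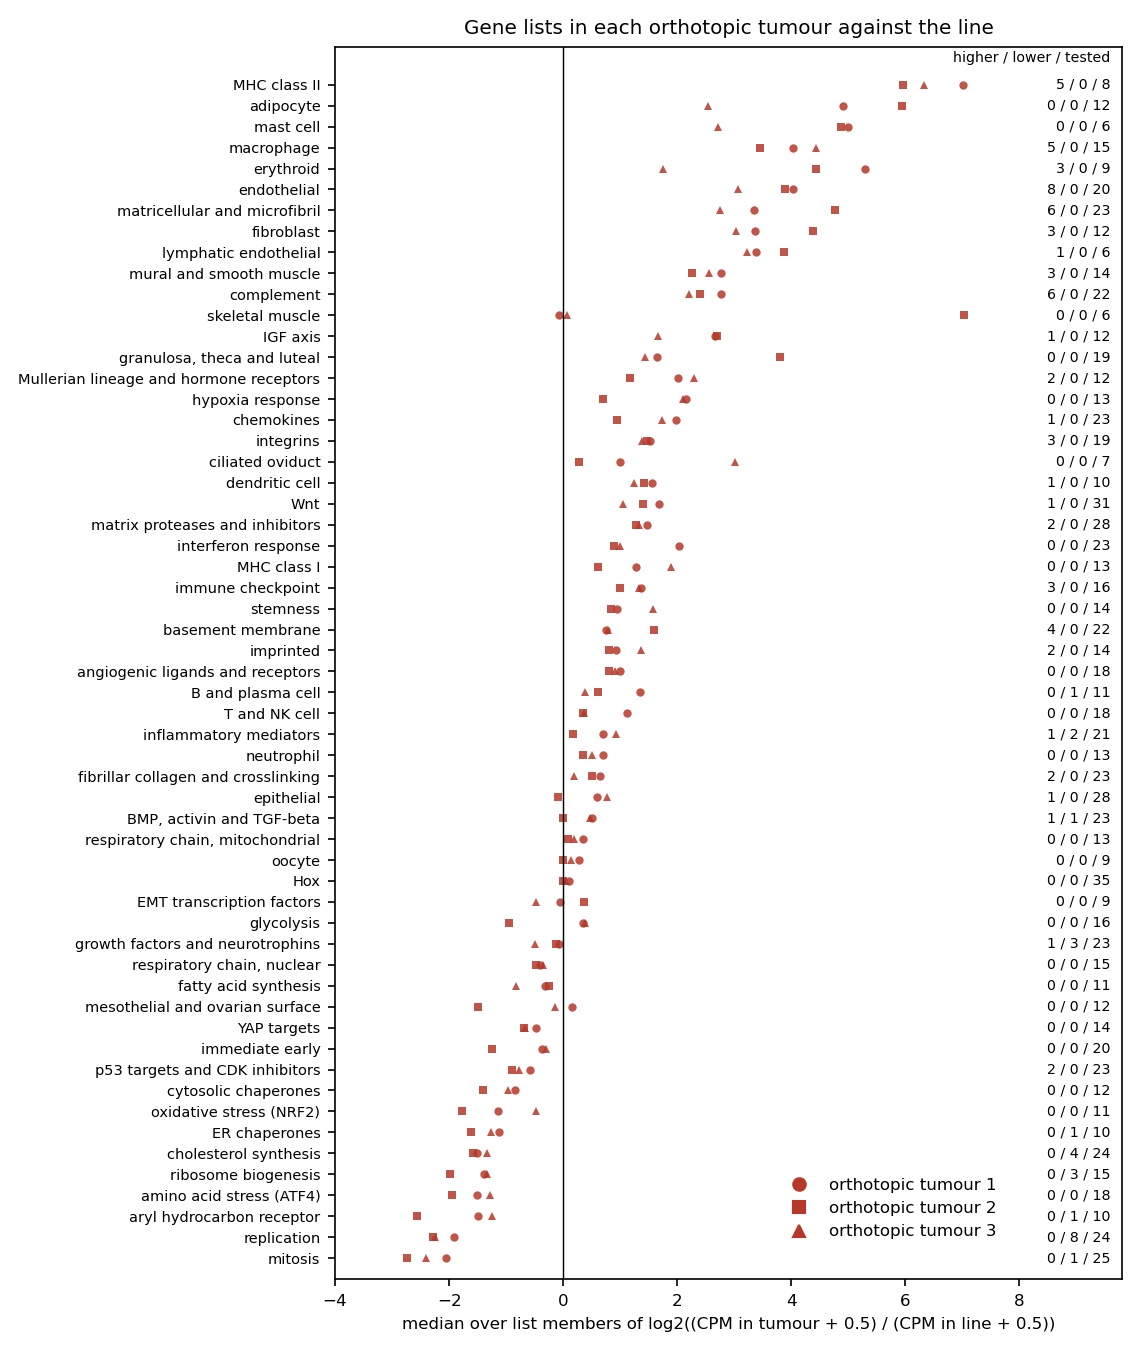
Each symbol is the median over the members of a gene list of log2 of tumour CPM over line CPM, with 0.5 added to both, for orthotopic tumours 1 to 3. The numbers on the right give members higher, lower and tested. Lists of immune, vessel and stromal genes lie to the right of 0 in each tumour and cell cycle, aryl hydrocarbon receptor and ribosome biogenesis lists to the left, while skeletal muscle genes lie far to the right for tumour 2 and near 0 for tumours 1 and 3.

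The 3 tumours were not alike. Their log2 CPM correlated at 0.954 to 0.967 across genes with each other, and at 0.860 to 0.882 with the line, where genes are not independent replicates. Skeletal muscle genes were summed at 2.31, 581 and 1.21 CPM in tumours, against 0.795 CPM in the line. Myh4, a fast myosin heavy chain, had 0, 130 and 0 CPM in tumours and no count in the line, and Acta1, the skeletal actin, had 0.0519, 233 and 0 CPM in tumours, against 0.106 CPM in the line. Tumour 2 alone carried them. Genes of ciliated oviduct marked tumour 3, as Foxj1, the master factor of motile cilia, had 0.493, 0.665 and 17.1 CPM in tumours, against 0.715 CPM in the line and 66.5 CPM in healthy ovary. Dnah5, a dynein arm chain of cilia, had 0.805, 0.133 and 23.9 CPM in tumours, against 0.053 CPM in the line. Epcam and Cdh1, described above, were also highest in that tumour.

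Hypoxia and fat genes also differed among the tumours, by less than the muscle genes. None of 13 hypoxia genes was called although each had a positive log2 fold change, and their summed level was 2347, 686 and 2854 CPM in tumours, against 451 CPM in the line. Ndrg1, a hypoxia-induced gene, had 481, 97.2 and 769 CPM in tumours, against 38.2 CPM in the line (adjusted p = 0.311), and Car9, a carbonic anhydrase induced by hypoxia, had 39.04, 2.59 and 8.58 CPM, against 1.14 CPM in the line. Tumour 2 was the lowest for both, and lowest also in the mesothelial sum of 2368, 872 and 2059 CPM in tumours, against 2786 CPM in the line. Adipoq, the adipocyte hormone adiponectin, had 23.3, 45.3 and 3.18 CPM in tumours and no count in the line, and the granulosa gene Lhcgr had 0.0519, 10.4 and 0.158 CPM in tumours. The part that muscle, fat, cilia and ovary content had in the calls above was not tested.

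**Figure D5:**
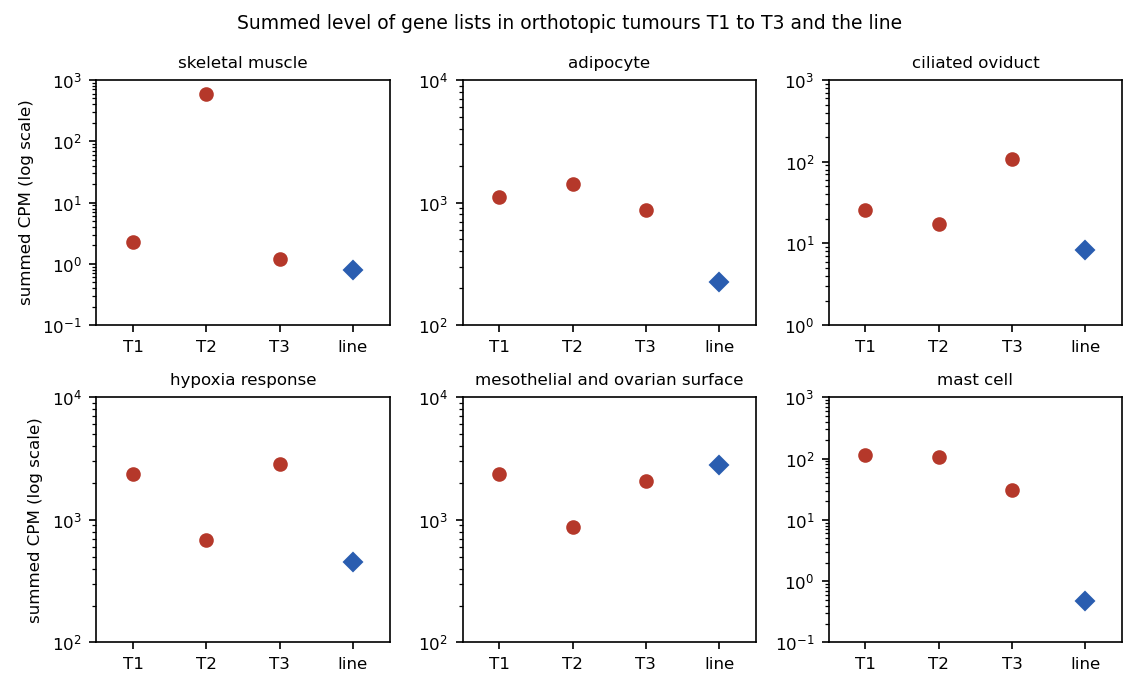
Summed CPM, on log axes, of 6 gene lists in orthotopic tumours T1 to T3 and in the line. Skeletal muscle genes reach 581 CPM in tumour 2 alone and ciliated oviduct genes 108 CPM in tumour 3, and the hypoxia and mesothelial sums are lowest in tumour 2 among the tumours.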

How the data were processed

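Total RNA was extracted with Trizol and sequenced from directional libraries made with a modified NEBNext Ultra II kit, per the labels' protocols. The submitters' processing notes name HISAT, HISAT2, featureCounts and DESeq2 and the builds hg19 and mm39, with no version or role, so the build and strand setting behind the counts are not given in the sources used here. Reads of overlapping or antisense genes may therefore not be separated. The deposited values were raw read counts per gene, as the authors counted them, for 43629 genes, with no rows of unassigned reads. One deposited file was used, and 1 of its columns matched no labelled sample and was not used here.

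Libraries were grouped by their labels into 8 groups. Totals ran from 12031221 to 38902048 counts in the 17 libraries, and a count of 0 in the line was bounded by 3 counts (0.0795 CPM). Fold bounds and the counting intervals of ratios cover counting error only. Intervals of log2 fold changes came from the edgeR fit and also include the spread between libraries. The labels name no animals, so p-values measure only the spread between these samples.

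The main test was that of edgeR 4.0.16, run in R 4.3.3. The 22671 genes with more than 0.5 CPM in at least 2 libraries were fitted by the quasi-likelihood method over all 17 libraries (TMM, robust, 9 residual degrees of freedom), with the contrast orthotopic minus line and Benjamini-Hochberg adjustment at 0.05. CPM used TMM-scaled library sizes, and each SE came from the F statistic. Folds against 0 counts are lower bounds from the mean tumour CPM. Alternatives were other scalings and filters, fewer libraries in the fit, each tumour left out and DESeq2 1.42.0.

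Named genes were up to 8 per direction by fold and up to 6 by difference of mean CPM among called genes reaching a group mean of 10 CPM, up to 4 per list by p, other list members described by library, and up to 6 abundant genes with intervals between -1 and 1. The 57 gene lists hold 928 genes, of which 915 were tested. Some list members are not reported here by name, though the counts include them. Members and lists were chosen with earlier results of these data known. Promoters came from RefSeq (GRCm38.p6), whose build differs from those named for the counts.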

Additional observations from a re-analysis of the deposited data

How the results depend on the processing

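No called gene changed direction under any of the 10 alternatives. The counts depended on the fit. With only the 4 libraries of the comparison, 2476 genes were higher and 1391 lower, and with DESeq2 2729 and 1077, against 537 and 189. Of the 726 calls, 711 were among the 3867 of that small fit and 725 among the 3806 of DESeq2. Leaving out 1 tumour gave 277 to 341 genes higher and 32 to 50 lower. Genes lower numbered 61 with library size alone and 104 with no filter on low counts. Relative log expression scaling, a filter of more than 1 CPM in 3 libraries and a fit with no healthy tissue gave 520, 636 and 539 genes higher and 211, 269 and 153 lower. By list, library size alone left 2 of 8 replication, 0 of 3 ribosome biogenesis, 1 of 4 basement membrane and 1 of 3 fibroblast calls, and no filter left 0 of 3 erythroid and 2 of 4 cholesterol calls. DESeq2 called 21 of 24 replication and 8 of 25 mitosis genes lower, against 8 and 1 in the main fit. It called 9 of 19 granulosa, theca and luteal genes and 5 of 18 T and NK cell genes higher, against 0 in each. Calls also rose over all 22671 genes tested, where DESeq2 gave 2729 higher and 1077 lower, against 537 and 189 in the main fit. The fit of only the 4 libraries also gave more calls in these lists, as it did over all 16855 genes it tested. Of the 93 named genes that passed, 44 did so under each of the alternatives that gave a value.

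Genes that did not pass changed sign in places, on the log2 scale. With library size alone Ankrd17, Prrc2a, Son and Srrm2 stood at 0.0924, 0.10, 0.0467 and 0.102. With no healthy tissue in the fit Ankrd17, Prrc2a and Srrm2 stood at 0.0220, 0.0391 and 0.0306, and with only the 4 libraries Prrc2a stood at 0.0097. With a tumour left out, values ran from -1.88 to 10.06 for Acta1, -0.15 to 0.0662 for Ankrd17, -0.0687 to 0.84 for C3, -0.18 to 0.36 for Cdkn1a, -0.44 to 0.14 for Fn1, -0.30 to 3.63 for Foxj1, -0.0810 to 0.15 for Gata6, -0.21 to 0.17 for Prrc2a, -0.0742 to 0.0017 for Srrm2, -0.35 to 0.0311 for Wt1 and -3.71 to 0.0414 for Zp3. The cause was not tested.

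No paired analysis was possible because the line has a single library. With 3 tumours against 1 library no exact permutation test over samples can reach the threshold, and the line's own variation is assumed to be like that of the replicated groups.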
